A study of Macaca mulatta with 20 samples.

Results

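Expression of endothelial genes, which mark the cells that line blood vessels, was compared over 5 RNA sources of the rhesus macaque: the tissues cerebral cortex, pancreas, testis and thymus, and immortalized fibroblasts. The last are connective tissue cells that can divide in culture without limit. The 10 genes were PECAM1, CLDN5, EMCN, KDR, TEK, TIE1, ENG, VWF, PLVAP and FABP4. Every probe set that carries a member as its only gene symbol in the array annotation was taken, which gave 17 probe sets of 9 genes among 14132 genes on the rhesus arrays and 21 probe sets of 10 genes among 19775 genes on the human arrays. PLVAP had no such probe set on the rhesus arrays. Each of the 5 sources was hybridized to 2 Rhesus Macaque Genome Arrays, numbered 1 and 2, and to 2 Human Genome U133 Plus 2.0 Arrays, numbered 3 and 4, which made 20 arrays from aliquots of 5 ug of total RNA. The human arrays carry probes designed from human transcripts, so that rhesus RNA can mismatch them. Arrays of a source are technical replicates per the labels, so that p-values reflect differences among arrays of 5 RNA preparations and not among animals. No treatment, age, sex or strain is given for the sources in the labels used here.

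Endothelial cells line all blood vessels and are held together by junction proteins such as PECAM1 and claudin-5, which seals the vessels of the blood-brain barrier. They respond to growth factors through receptor tyrosine kinases, among them KDR for VEGF and TEK for the angiopoietins, and through ENG, a co-receptor for ligands of the TGF-beta family. The same cells store von Willebrand factor for clotting, and capillaries of several organs hold FABP4, a carrier of fatty acids that is also abundant in fat cells. Cultured fibroblasts have no vessels and were therefore the source against which the 4 tissues were set. In RNA of whole tissue, fewer endothelial cells and less RNA per cell cannot be told apart.

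The RNA sources carried the marker genes of their labels. All measured cortex genes (5 of 5 rhesus, 6 of 6 human), pancreas genes (5 of 5 and 5 of 5) and thymus genes (4 of 4 and 6 of 6) were called higher in their own tissue than in fibroblasts, as were 6 of 6 testis genes on the rhesus and 5 of 6 on the human arrays. Some markers were also called higher in another source. In testis these were 3 of 4 rhesus and 3 of 6 human thymus genes, among them DNTT, an enzyme of immature lymphocytes, by 4.60 and 2.49. In pancreas 1 of 5 rhesus and 3 of 6 human cortex genes were, among them SLC1A2, a glutamate transporter, by 6.42 and 6.63. The testis gene SOX9 was higher in pancreas by 3.08 (rhesus) and 7.30 (human) and in cortex by 2.02 and 6.65. The part of such sources of RNA in the testis, pancreas and cortex values of the members was not tested. The pancreas arrays stood apart from the rest. The SD between their 2 arrays was 0.281 (rhesus) and 0.218 (human), against 0.137 to 0.170 (rhesus) and 0.151 to 0.166 (human) elsewhere. Their spiked hybridization controls averaged 11.1 (rhesus) and 11.4 (human) on the log2 scale, against 9.59 to 10.3 and 9.93 to 10.5 elsewhere. For the members, the 2 arrays of a source differed by a median of 0.227 (rhesus) and 0.282 (human) in pancreas, against 0.0752 and 0.0428 in the remaining sources.

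All levels below are log2 expression values as deposited, and all differences are log2 differences, tissue minus fibroblasts. Where a gene had several probe sets, the brightest over all 10 arrays of a type stood for it. A difference was called where limma gave an adjusted p (Benjamini-Hochberg over all probe sets of the table) below 0.05 and its size was at least 1. A source mean was taken as near the floor where it did not pass 3.56 on the rhesus or 3.22 on the human arrays, the highest source mean among bacterial control probe sets that had no spiked target. Without pancreas these floors were 3.11 and 3.13. A difference with a side near the floor is not an exact fold change, and levels of different genes are not compared.

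On the deposited values pancreas held the most members called above fibroblasts on both array types. On the rhesus arrays 6 of 9 members were called higher in pancreas, where 10.8% of all genes were, 5 in testis (17.2% of all genes), 5 in thymus (16.0%) and 2 in cortex (16.9%). Human arrays called 4 of 10 members higher in pancreas (5.97% of all genes), 3 in thymus (9.15%), 1 in testis (9.49%) and 1 in cortex (10.8%). The cortex counts on both types and the human testis count were near the shares over all genes. With the spiked controls subtracted, human counts were 2 in pancreas and 3 in thymus, and rhesus counts 5 in pancreas, 5 in testis and 4 in thymus. With each array left out in turn, the human count was 3 to 6 in pancreas and 3 to 4 in thymus. ENG was the only member called lower, in cortex, pancreas and thymus on both array types. Genes called lower made up 22.5%, 25.0% and 18.0% of all genes on the rhesus arrays in these tissues, and 13.2%, 16.8% and 11.1% on the human arrays. The 1 lower call per tissue, of 9 rhesus or 10 human members, did not exceed these shares. In testis 33.8% of rhesus and 19.5% of human genes were called in either direction, and 2352 of 14132 and 1983 of 19775 were called lower. There limma called 0 members lower, and 1 rhesus and 0 human members were lower at an unadjusted p below 0.05 with no minimum size. The share of all genes at that unadjusted p was not counted. The median member difference in pancreas was 2.73 (rhesus) and 1.14 (human), beside 0.03 and 0.04 over all genes. In testis it was 2.02 and 0.29, in thymus 1.16 and 0.41, and in cortex 0.48 and -0.03, beside medians over all genes between -0.10 and -0.02.

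The members were also ordered by their source means, and each step between neighbours in that order was tested. Of 36 such steps 17 were called on the rhesus arrays, and 8 of 40 were on the human ones. Neighbours were set by the same values that were then tested, and many steps involve fibroblasts. The shares over all genes that follow are for fixed pairs of tissues without fibroblasts, so they are not a like measure for these steps. Over all genes, the share called in either direction on the rhesus arrays was 38.0% for cortex against pancreas, 38.4% for cortex against testis and 42.5% for cortex against thymus. For pancreas against testis, pancreas against thymus and testis against thymus it was 37.1%, 39.4% and 29.6%. The same 6 shares were 22.9%, 21.7%, 24.6%, 21.7%, 23.3% and 15.8% on the human arrays.

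**Figure D1:**
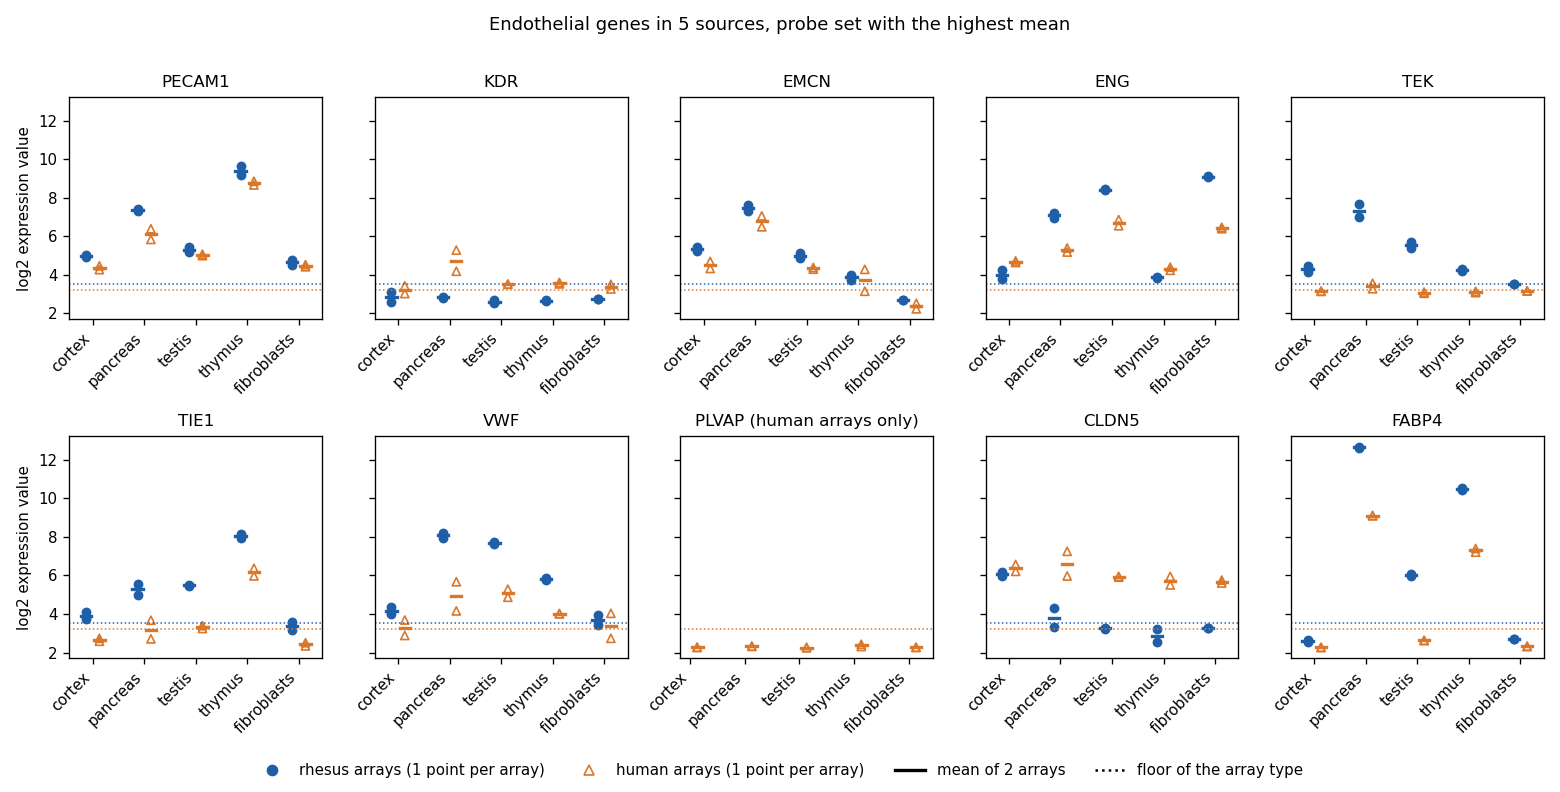
Log2 expression value (vertical axis) of each member in 5 sources, with 1 point per array, short bars for the mean of 2 arrays and dotted lines for the floor of each array type. PECAM1 and TIE1 were highest in thymus, EMCN and FABP4 in pancreas on both array types, and PLVAP lay between 2.25 and 2.43 on all human arrays.

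PECAM1, an adhesion molecule of the contacts between endothelial cells that platelets and many white blood cells also carry, was highest in thymus. The rhesus probe set MmugDNA.20462.1.S1_at read 9.19 and 9.63 in thymus, 7.34 and 7.42 in pancreas, 5.44 and 5.18 in testis and 4.93 and 5.05 in cortex, against 4.54 and 4.76 in fibroblasts. The human 208982_at read 8.66 and 8.86 in thymus, 6.39 and 5.84 in pancreas, 5.00 and 5.08 in testis and 4.28 and 4.47 in cortex, against 4.42 and 4.53 in fibroblasts. Thymus and pancreas did not overlap with fibroblasts or with each other on either array type, while cortex on the human arrays overlapped with fibroblasts. Thymus differed from fibroblasts by 4.76 (SE 0.17, limma adjusted p = 1.6e-06) on the rhesus and by 4.28 (SE 0.18, adjusted p = 1.5e-05) on the human type. In pancreas it was 2.73 (SE 0.17, adjusted p = 2.6e-05) and 1.64 (SE 0.18, adjusted p = 9.8e-04), and the human call ended with the spiked controls subtracted (0.19). Thymus exceeded pancreas by 2.03 and 2.64, and pancreas exceeded testis by 2.07 and 1.08, all called, whereas testis, cortex and fibroblasts were neighbours with no called step.

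The other PECAM1 probe sets fell into those that followed this order and those that stayed flat. MmugDNA.28182.1.S1_at and MmuSTS.1106.1.S1_at on the rhesus arrays had the same order of 5 sources as the first, with thymus at 9.74 and 9.82 and at 8.66 and 8.67, against fibroblasts at 3.74 and 3.97 and at 3.72 and 3.80. Both were also called higher in testis, by 1.47 and 1.50, where the first probe set gave 0.66 and was not called. After quantile normalization these testis differences were 0.93 and 0.98 and no longer met the minimum size. The human 208983_s_at was called higher in thymus alone, at 6.82 and 6.48 against 3.68 and 3.67 in fibroblasts, while its pancreas arrays read 3.91 and 3.92. The remaining human probe sets, 1558397_at, 1559921_at and 208981_at, were near the floor in all sources.

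Markers of white blood cells were called in thymus and in other tissues. Of 8 measured macrophage genes, 5 were called higher and 1 lower in thymus on the rhesus arrays, and 3 and 1 of 8 on the human arrays. Over all genes, 16.0% (rhesus) and 9.15% (human) were called higher in thymus, 16.9% and 10.8% in cortex and 17.2% and 9.49% in testis. In thymus 18.0% and 11.1% of all genes were called lower. In cortex and in testis 4 of 8 rhesus macrophage genes were called higher too, with medians of 1.11 and 1.32 beside 1.96 in thymus. On the human arrays 0 and 1 of 8 were. The human medians were 0.13 in cortex and 0.09 in testis beside 0.14 in thymus, so the human median did not set thymus apart. The mean of the list ran from 6.06 to 6.22 over the thymus arrays and from 3.91 to 4.00 over the fibroblast arrays on the rhesus type, and from 4.65 to 4.82 and from 3.60 to 3.80 on the human type. LYZ, lysozyme of macrophages and other myeloid cells, was 7.92 higher on the rhesus and 6.51 higher on the human arrays. TYROBP, an adaptor of myeloid receptors, was 5.33 and 2.95 higher, and AIF1, a calcium-binding protein of macrophages, 3.78 and 1.98. CD14, a receptor for bacterial lipopolysaccharide, averaged 5.47 and 3.42 in thymus, against 8.40 and 6.74 in fibroblasts, and was called lower. Of the platelet genes, 0 of 7 (rhesus) and 0 of 8 (human) were called by limma in thymus. At an unadjusted limma p below 0.05 and with no minimum size, 3 rhesus and 0 human genes were lower and 0 were higher. The share of all genes at that p was not counted. The platelet median in thymus was -0.13 (rhesus) and -0.04 (human), beside -0.06 and -0.03 over all genes. ITGA2B, GP9 and PPBP, which mark platelets, were near the floor in all sources. The part of white blood cells in the PECAM1 level was not tested.

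CLDN5, the main claudin of the blood-brain barrier, stood out in cortex on the rhesus arrays. MmuSTS.3423.1.S1_at read 6.17 and 6.0 in cortex, 3.30 and 4.31 in pancreas, 3.25 and 3.26 in testis and 3.20 and 2.53 in thymus, against 3.26 and 3.27 in fibroblasts. Both cortex arrays lay above all others, and testis, thymus and fibroblasts were near the floor. The cortex difference was 2.82 (SE 0.35, limma adjusted p = 6.7e-04), and cortex exceeded pancreas, the next source, by 2.28. Its human probe set 204482_at read 6.57 and 6.21 in cortex, 7.25 and 5.97 in pancreas, 5.91 and 5.95 in testis and 5.95 and 5.51 in thymus, against 5.76 and 5.61 in fibroblasts. No source was near the floor there, no tissue was called, and the cortex difference was 0.71 (SE 0.41, adjusted p = 0.35). After quantile normalization pancreas was called on the human arrays, by 1.61 (adjusted p = 0.043).

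Other genes of the blood-brain barrier were called in both directions in cortex. Of the listed barrier and transport genes, 11 were measured by the rhesus type, of which 1 was called higher and 3 lower in cortex, and 12 by the human type, of which 1 was higher and 2 lower. Over all genes, 16.9% were called higher and 22.5% lower in cortex on the rhesus type, and 10.8% and 13.2% on the human type. The counts of the list were near these shares. ABCG2, a drug efflux pump of brain capillaries, was 2.90 and 2.75 higher in cortex. It was also 2.69 and 2.50 higher in thymus. ABCB1, another efflux pump, was called lower than in fibroblasts in all 4 tissues on both array types, and in cortex it fell by 5.96 on the rhesus and fell by 5.23 on the human arrays. SLC38A5, an amino acid transporter, fell by 1.60 (rhesus) and fell by 2.99 (human) in cortex. SLC2A1, the glucose transporter of the barrier, was called lower in pancreas, testis and thymus on both. Other genes of the list were called higher on both types. In pancreas OCLN was higher by 4.58 and 2.47, and CLDN3 by 6.30 and 1.64. In testis CLDN1 was higher by 5.07 and 2.65, and TJP1 by 2.46 and 2.38. In thymus TJP1 was called lower, by -2.97 and -3.25.

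EMCN, a sialomucin of the vessel surface, was highest in pancreas and was the member that was called higher in the most tissues on both array types. The rhesus probe set MmugDNA.41909.1.S1_at read 7.33 and 7.61 in pancreas, 5.26 and 5.46 in cortex, 5.12 and 4.86 in testis and 3.74 and 4.01 in thymus, against 2.72 and 2.72 in fibroblasts. In human probe set 219436_s_at the values were 7.06 and 6.50 in pancreas, 4.34 and 4.70 in cortex, 4.39 and 4.30 in testis and 3.15 and 4.29 in thymus, against 2.24 and 2.52 in fibroblasts. All tissue arrays lay above both fibroblast arrays, and the fibroblasts were near the floor. In pancreas the difference was 4.75 (SE 0.15, limma adjusted p = 1.2e-06) on the rhesus and 4.40 (SE 0.39, adjusted p = 3.6e-04) on the human arrays.

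The EMCN differences in the other tissues were smaller. In cortex they were 2.64 and 2.13, in testis 2.27 and 1.96, all called, with human adjusted p-values of 0.0091 and 0.014. The human cortex call was lost without cortex replicate 4 (adjusted p = 0.056) or fibroblast replicate 3 (0.052), and the human testis call without either testis array (0.066 and 0.062) or fibroblast replicate 3 (0.062). Thymus was called on the rhesus arrays at 1.16 (adjusted p = 8.3e-04) and not on the human arrays at 1.34 (adjusted p = 0.066), where its 2 arrays differed by 1.13. Pancreas exceeded cortex, the next source, by 2.11 and 2.26, both called, and the step between cortex and testis, 0.37 (rhesus) and 0.17 (human), was not called on either type.

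Pancreas was the highest source in each of the other EMCN probe sets too. MmugDNA.16324.1.S1_at read 6.21 and 6.25 in pancreas and was near the floor in all other sources. MmugDNA.16107.1.S1_at read 7.41 and 7.24 in pancreas, 5.38 and 4.37 in cortex, 4.42 and 4.81 in testis and 3.93 and 3.86 in thymus, against 3.42 and 3.42 in fibroblasts. The human 222885_at read 5.36 and 4.35 in pancreas and was near the floor elsewhere, and 227874_at read 3.35 and 3.27 in pancreas, against 2.87 and 2.93 in fibroblasts, a difference of 0.41 that did not reach the minimum size.

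KDR, the main signalling receptor for VEGF in endothelium, was near the floor in all sources on the rhesus arrays, where Mmu.3235.1.S1_at ran from 2.54 to 3.10. The human 203934_at read 5.28 and 4.19 in pancreas, 3.03 and 3.43 in cortex, 3.52 and 3.51 in testis and 3.61 and 3.54 in thymus, against 3.51 and 3.27 in fibroblasts. Both pancreas arrays were above all others, but they differed from each other by 1.10. The pancreas difference of 1.35 (SE 0.35, limma adjusted p = 0.027) was called, and the call ended without pancreas replicate 3, where the difference was 0.80, and without fibroblast replicate 3 (adjusted p = 0.082) or 4 (0.10). With the spiked controls subtracted it was -0.10. KDR was the only member called on the human arrays and not on the rhesus arrays.

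TEK, the receptor of the angiopoietins, had source means that spanned 3.80 with the rhesus type and 0.35 with the human type. MmuSTS.1184.1.S1_at read 7.67 and 7.01 in pancreas, 5.39 and 5.73 in testis, 4.46 and 4.14 in cortex and 4.29 and 4.22 in thymus, against 3.55 and 3.53 in fibroblasts. No tissue array overlapped with the fibroblast arrays, which were near the floor. Differences of 3.80 in pancreas (SE 0.23, limma adjusted p = 2.5e-05) and 2.02 in testis (SE 0.23, adjusted p = 5.1e-04) were called, while 0.76 in cortex and 0.72 in thymus stayed under the minimum size. Pancreas exceeded testis by 1.78 and testis exceeded cortex by 1.26, both called. The human 217711_at ran from 3.05 to 3.57 and 206702_at from 2.43 to 2.62, with no call. A further rhesus probe set, MmugDNA.766.1.S1_at, was near the floor in all sources, with 3.82 and 3.12 in pancreas.

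TIE1, a receptor related to TEK that modulates its signalling, shared the thymus peak of PECAM1. MmugDNA.33949.1.S1_at on the rhesus arrays read 8.13 and 7.97 in thymus, 5.53 and 5.48 in testis, 4.98 and 5.57 in pancreas and 4.11 and 3.72 in cortex, against 3.59 and 3.18 in fibroblasts. The human 204468_s_at read 6.37 and 5.98 in thymus, 3.40 and 3.25 in testis, 2.71 and 3.68 in pancreas and 2.74 and 2.59 in cortex, against 2.35 and 2.51 in fibroblasts. The thymus arrays were far above all others on both types. Thymus differed by 4.66 (SE 0.24, limma adjusted p = 9.1e-06) and 3.74 (SE 0.31, adjusted p = 2.8e-04), and it exceeded testis, the next source, by 2.55 and 2.85. Testis (2.12) and pancreas (1.89) were called on the rhesus arrays, and neither was on the human arrays, where the differences were 0.89 and 0.77. The rhesus pancreas call ended with the spiked controls subtracted (0.34). Without pancreas replicate 3 the human pancreas difference was 1.25 and was called (adjusted p = 0.0060). The human probe set 1560657_at was above the floor in pancreas alone, at 4.11 and 3.55, and was not called.

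ENG, which fibroblasts and other connective tissue cells carry as well as endothelium, was the member with high fibroblast levels. The rhesus probe set MmuSTS.4135.1.S1_at read 8.44 and 8.38 in testis, 7.20 and 6.96 in pancreas, 4.23 and 3.76 in cortex and 3.86 and 3.89 in thymus, against 9.09 and 9.11 in fibroblasts. Its human counterpart 201809_s_at read 6.55 and 6.87 in testis, 5.39 and 5.19 in pancreas, 4.65 and 4.73 in cortex and 4.40 and 4.24 in thymus, against 6.40 and 6.47 in fibroblasts. Both array types gave the order testis, pancreas, cortex, thymus among the tissues, and fibroblasts were above testis on the rhesus arrays and below it on the human arrays.

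The ENG difference was -5.23 in thymus and -5.10 in cortex on the rhesus arrays (SE 0.15 each, limma adjusted p = 7.5e-07 and 5.8e-07), and -2.11 and -1.75 on the human arrays (SE 0.12 each, adjusted p = 5.7e-05 and 1.0e-04). In pancreas it was -2.01 (rhesus) and -1.14 (human), both called, and the human call ended after quantile normalization, where the difference was -0.57. In testis the difference was -0.69 (adjusted p = 0.010) on the rhesus arrays, under the minimum size, and 0.28 (adjusted p = 0.15) on the human arrays. The fibroblast genes of the list, among them the collagen COL1A2, the matrix proteoglycan DCN and the collagen cross-linking enzyme LOX, were mostly lower in the tissues. Of 8 measured on the rhesus arrays, 6 were called lower in cortex, and 7 in each of the other tissues. Of 9 on the human arrays, 8 were lower in cortex, 8 in pancreas, 7 in testis and 9 in thymus. Called higher were 1 rhesus gene each in cortex, testis and thymus, and 1 human gene in cortex. Over all genes, 22.5% (rhesus) and 13.2% (human) were called lower in cortex, 25.0% and 16.8% in pancreas, and 18.0% and 11.1% in thymus. In testis 2352 of 14132 rhesus and 1983 of 19775 human genes were. On the rhesus arrays the mean of the fibroblast list was 11.96 to 11.99 in fibroblasts. It was 6.80 to 6.82 in cortex, 9.13 to 9.22 in pancreas, 9.96 to 10.04 in testis and 7.84 to 7.91 in thymus. The part of connective tissue cells in the ENG levels was not tested. The other ENG probe sets, MmugDNA.40038.1.S1_at and 201808_s_at, were near the floor in all sources.

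Among ligands and partners of these receptors, as over all genes in cortex, pancreas and thymus, more were called lower than higher. Of 12 measured on the rhesus arrays, 5 were called lower in cortex, 4 in pancreas, 4 in testis and 5 in thymus. A single gene was called higher, in pancreas. Of 16 on the human arrays, 7, 5, 6 and 7 were lower and 0, 1, 1 and 2 higher. Over all genes, 22.5% (rhesus) and 13.2% (human) were called lower in cortex, 25.0% and 16.8% in pancreas, and 18.0% and 11.1% in thymus. In testis 2352 of 14132 and 1983 of 19775 genes were called lower. NRP1, a co-receptor for VEGF, differed by -3.59 (rhesus) and -2.46 (human) in cortex, by -3.49 and -2.51 in thymus and by -2.18 and -1.85 in pancreas. ANGPT1, the activating ligand of TEK, differed by -4.17 and -1.46 in thymus, by -1.75 and -1.06 in cortex and by -1.60 and -1.26 in testis. VEGFB, a ligand of the VEGF family, differed by -1.93 and -1.74 in testis, and TGFBR2, a receptor for TGF-beta, by -1.08 and -2.53 in pancreas.

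VWF, the clotting glycoprotein that endothelium stores and secretes, was high in pancreas and testis on the rhesus arrays. MmuSTS.2906.1.S1_at read 7.96 and 8.20 in pancreas, 7.75 and 7.62 in testis, 5.89 and 5.76 in thymus and 4.36 and 3.99 in cortex, against 3.96 and 3.42 in fibroblasts. Pancreas, testis and thymus did not overlap with fibroblasts, and cortex lay just above them. Differences of 4.39 in pancreas, 4.00 in testis and 2.14 in thymus were called (SE 0.21 each, limma adjusted p = 7.3e-06, 1.1e-05 and 2.0e-04). Pancreas and testis were not called apart (0.39, adjusted p = 0.13), whereas testis exceeded thymus by 1.86 and thymus exceeded cortex by 1.65.

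No VWF difference was called on the human arrays. The probe set 202112_at read 5.68 and 4.16 in pancreas, 4.87 and 5.29 in testis, 4.02 and 4.02 in thymus and 2.89 and 3.69 in cortex, against 2.74 and 4.04 in fibroblasts. Both testis and both pancreas arrays were above both fibroblast arrays, but the arrays of pancreas differed by 1.51 and those of fibroblasts by 1.30, so that the SE was 0.64. The differences of 1.53 in pancreas and 1.69 in testis had adjusted p-values of 0.11 and 0.10. Without pancreas replicate 4 the pancreas difference was 2.29 and was called (adjusted p = 0.041). The order of the top 2 sources turned after quantile normalization. MmugDNA.8805.1.S1_at and 233980_s_at were near the floor in all sources. As platelets also carry VWF, the platelet list is given beside it: 1 of 7 rhesus genes was called higher in pancreas, PF4, a platelet chemokine, by 1.01, and 0 of 8 human genes was, with PF4 near the floor there. Over all genes, 10.8% (rhesus) and 5.97% (human) were called higher in pancreas. The platelet median there was 0.38 (rhesus) and 0.08 (human), beside 0.03 and 0.04 over all genes. At an unadjusted limma p below 0.05 and with no minimum size, 4 rhesus and 2 human platelet genes were higher in pancreas. The share of all genes at that p was not counted, so the unadjusted counts have no baseline. In testis 0 platelet genes were called by limma, where 33.8% of all rhesus and 19.5% of all human genes were called in either direction. There 5 rhesus and 3 human platelet genes were lower at an unadjusted limma p below 0.05. The testis median of the list was -0.23 (rhesus) and -0.08 (human), beside -0.10 and -0.04 over all genes.

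PLVAP, which builds the diaphragms of fenestrated capillaries, was measured on the human arrays alone. Its probe set 221529_s_at ran from 2.25 to 2.43 over all 10 arrays, near the floor in every source, and no tissue was called. Nothing about its level in these tissues can be read from values at that floor.

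FABP4 had the widest range of all members. The rhesus MmugDNA.19691.1.S1_at read 12.62 and 12.69 in pancreas, 10.54 and 10.45 in thymus, 6.07 and 5.97 in testis and 2.64 and 2.57 in cortex, against 2.71 and 2.73 in fibroblasts. Its human probe set 203980_at read 9.11 and 9.09 in pancreas, 7.21 and 7.40 in thymus, 2.64 and 2.63 in testis and 2.26 and 2.28 in cortex, against 2.34 and 2.31 in fibroblasts. Pancreas and thymus were far above the rest on both types, and cortex and fibroblasts were near the floor. The pancreas difference was 9.93 (SE 0.05, limma adjusted p = 7.3e-10) on the rhesus and 6.78 (SE 0.06, adjusted p = 1.9e-08) on the human arrays, and that in thymus 7.78 (SE 0.05, adjusted p = 3.3e-09) and 4.98 (SE 0.06, adjusted p = 7.5e-08). In testis the rhesus difference was 3.30 and called, and the human difference was 0.31, with testis near the floor.

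Both FABP4 probe sets of an array type put pancreas first, but not all saw thymus and testis. MmugDNA.31873.1.S1_at read 9.43 and 9.66 in pancreas and 7.04 and 7.15 in thymus, and was near the floor in testis at 2.68 and 2.72, against 2.81 and 2.77 in fibroblasts. The human 235978_at read 4.68 and 4.97 in pancreas and was near the floor in thymus, at 2.98 and 2.94.

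Fat cell genes were set beside FABP4. CD36, a fatty acid transporter of fat cells, capillaries and macrophages, read 7.98 and 8.11 in pancreas and 6.29 and 6.40 in thymus on the rhesus arrays, against 3.19 and 3.20 in fibroblasts. Human arrays gave 7.28 and 7.97 in pancreas and 6.09 and 6.12 in thymus, against 2.68 and 2.73 in fibroblasts. Its differences of 4.85 and 4.92 in pancreas and of 3.15 and 3.40 in thymus were called. PPARG, another gene of the list, was called lower in thymus, by -1.51 (rhesus) and -1.56 (human). In cortex it was called lower too, by -1.55 on each type. It was near the floor in both tissues. The hormone ADIPOQ, which defines fat cells, was near the floor in all sources on the human arrays. On the rhesus arrays it averaged 7.31 in pancreas and 8.83 in thymus, against 8.27 in fibroblasts. PLIN1, which coats lipid droplets, was near the floor in all sources on the human arrays, and LPL, a lipase that acts at the vessel wall, averaged 6.55 in pancreas, against 3.01 in fibroblasts, on the human arrays. Its rhesus means were 7.79 in pancreas, against 7.26 in fibroblasts.

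Over the whole fat cell list, 1 of 5 rhesus and 3 of 8 human genes were called higher in pancreas, with 0 and 1 lower, and 2 and 2 were called higher in thymus, with 1 and 1 lower. Of all genes, 10.8% (rhesus) and 5.97% (human) were called higher in pancreas, and 16.0% and 9.15% in thymus. Those called lower were 25.0% and 16.8% in pancreas, and 18.0% and 11.1% in thymus. The list mean on the rhesus arrays was 6.68 to 6.82 in pancreas and 6.77 to 6.81 in thymus, against 5.78 to 6.09 in fibroblasts. The human list mean was 4.19 to 4.28 and 3.52 to 3.56, against 3.07 to 3.24. Macrophages can carry FABP4 as well, and of the macrophage list 4 of 8 rhesus and 1 of 8 human genes were called higher in pancreas, with 1 and 1 lower. LYZ was 2.83 (rhesus) and 2.67 (human) higher, and CD14 differed by -2.97 and -3.58. HBB, the beta chain of haemoglobin, was 3.62 (rhesus) and 6.61 (human) higher in pancreas. It was also called higher on the human arrays in cortex by 5.03, in testis by 4.43 and in thymus by 4.90. On the rhesus arrays HBB was near the floor in cortex, testis and thymus and was not called there, so the array types differed. The red cell genes AHSP and ALAS2 were near the floor in all sources on both types. The part of fat cells, macrophages and blood in the FABP4 levels was not tested.

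**Figure D2:**
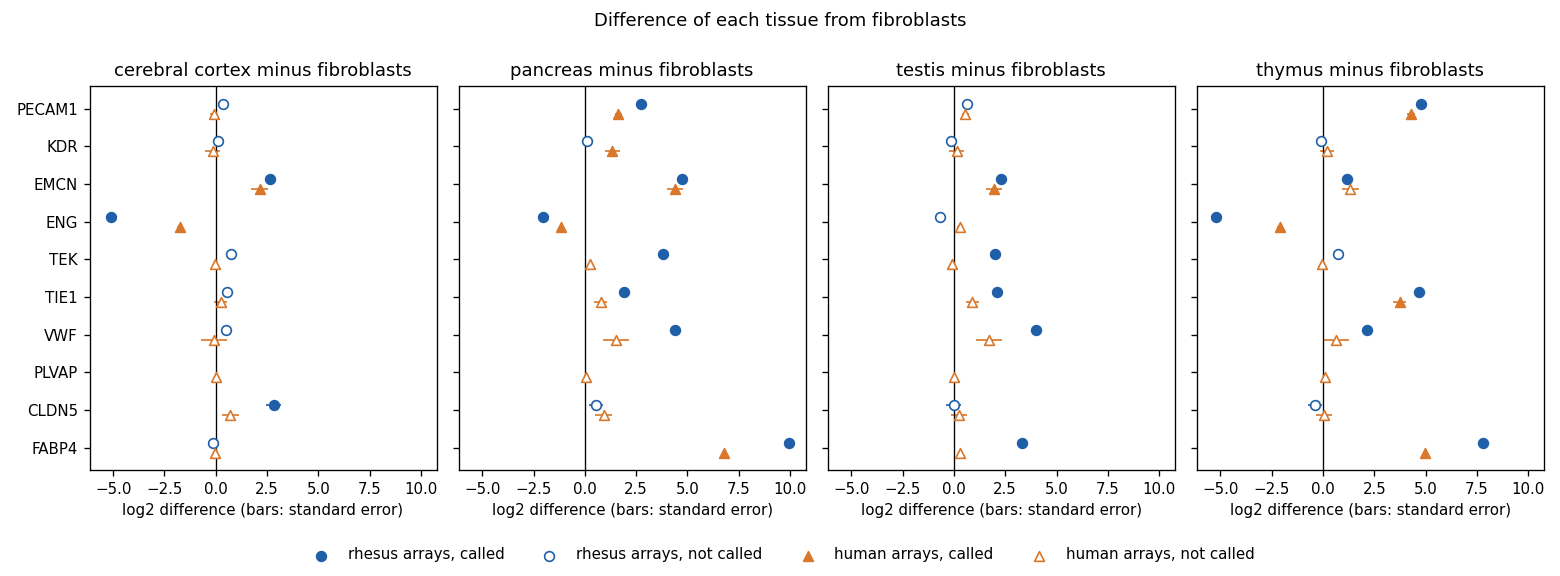
Log2 difference (horizontal axis, with standard errors) of each tissue minus fibroblasts for every member, with filled symbols for called differences. Of the 36 pairs of gene and tissue on both array types, 11 were called the same way on both, and ENG was the only member called below 0.

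Across the 9 members on both array types and the 4 tissues there were 36 differences. Of these 11 were called the same way on both types, 10 on the rhesus arrays alone, 1 on the human arrays alone and 14 on neither, and 0 were called in opposite directions. The difference was larger in size on the rhesus arrays in 30 of 36, among them all 11 called on both. The range over the 5 sources was larger on the rhesus arrays for 8 of 9 members, the exception being KDR, and the highest source was the same for 5 of 9. Over the 5 source means, Pearson's r between array types was 0.99 for EMCN, 0.98 for PECAM1 and VWF, 0.97 for FABP4, 0.96 for TIE1 and 0.95 for ENG. It was 0.73 for TEK, 0.63 for CLDN5 and 0.34 for KDR, the 3 members with a range under 1 on an array type. These r describe 5 points that share their RNA. The array types were fitted separately, so differences between them were not tested.

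**Figure D3:**
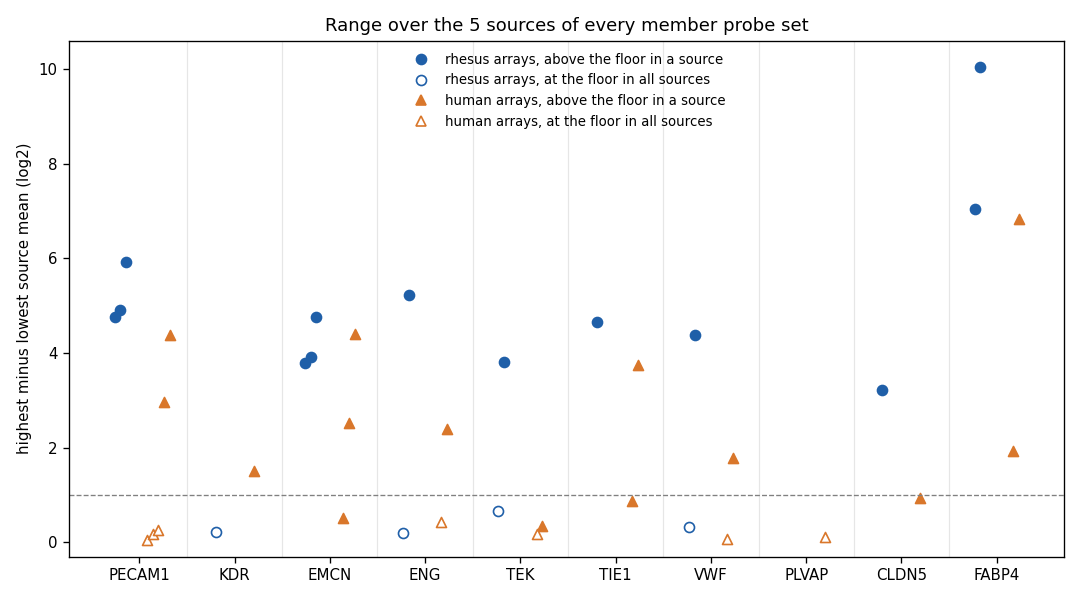
Highest minus lowest source mean (vertical axis, log2) of every member probe set, with filled symbols for probe sets above the floor in at least 1 source and a dashed line at 1. Ranges of at least 1 were found in 13 of 17 rhesus and 10 of 21 human probe sets.

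Probe sets of the same gene gave unlike ranges. Among rhesus probe sets 13 of 17 had a range of at least 1, the smallest of them 3.22, and the other 4 had at most 0.67 and were near the floor in all sources. Among human probe sets 10 of 21 had a range of at least 1, the smallest 1.50, and 7 of the remaining 11 were near the floor in all sources. PECAM1, EMCN, ENG, VWF and TIE1 each had a human probe set that varied beside at least 1 with a range under 1. All probe sets of FABP4 varied, and neither TEK probe set did on the human arrays.

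**Figure D4:**
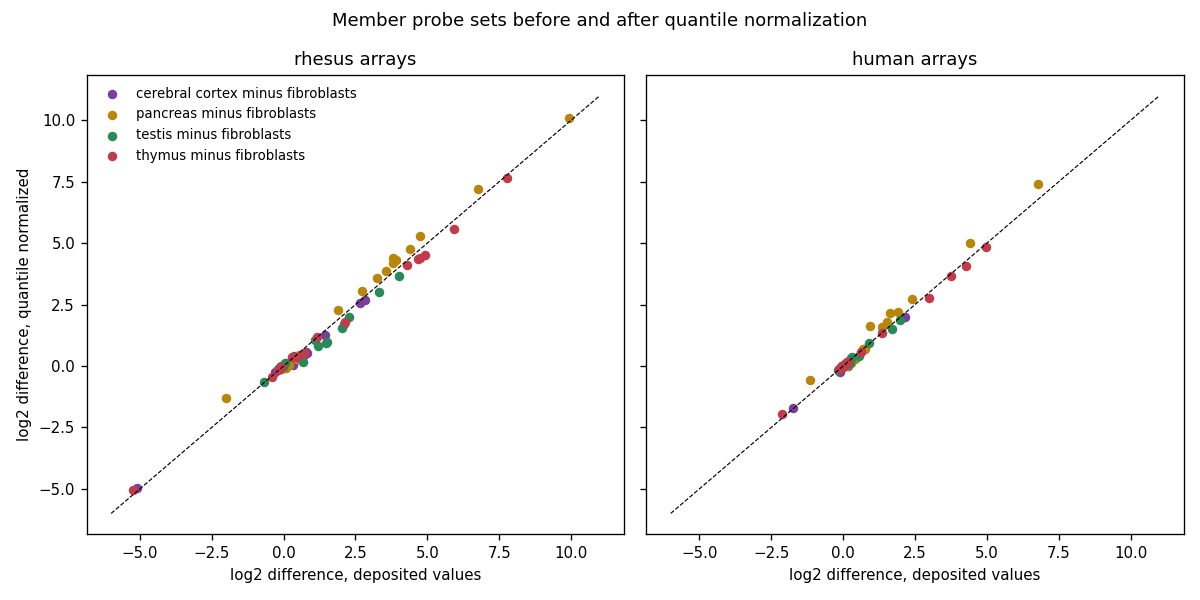
Log2 difference of every member probe set from fibroblasts after quantile normalization (vertical axis) against the deposited values (horizontal axis), with a dashed line of equality. All called pancreas differences, 12 for the rhesus and 7 for the human type, lay above the line.

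Quantile normalization of the 10 arrays of a table raised the called differences of pancreas on both array types and lowered those of testis on the rhesus type. All called pancreas differences moved up, 12 of 12 for the rhesus type and 7 of 7 for the human type, by as much as 0.70 and 0.63, while all 9 called testis differences on the rhesus arrays moved down, by at most 0.53. The highest source stayed the same in 16 of 17 rhesus and 19 of 21 human probe sets. Calls that changed numbered 3 on the rhesus arrays, all in testis, and 2 on the human arrays, both in pancreas.

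Other genes of the vessel lining were called in both directions. Of 31 measured on the rhesus arrays, 8 were called higher in pancreas, 7 in testis, 4 in cortex and 3 in thymus, and 3, 3, 4 and 2 were called lower. Of 36 on the human arrays, 2, 3, 1 and 1 were higher and 3, 2, 4 and 3 lower. The shares of all genes called higher in pancreas, testis, cortex and thymus were 10.8%, 17.2%, 16.9% and 16.0% on the rhesus type and 5.97%, 9.49%, 10.8% and 9.15% on the human type. Cortex and thymus counts of the list were below these shares on both types. Pancreas and testis counts were above them on the rhesus type and near them on the human type. Genes called lower in pancreas, cortex and thymus made up 25.0%, 22.5% and 18.0% of all rhesus genes. On the human type they made up 16.8%, 13.2% and 11.1%. In testis 2352 of 14132 rhesus and 1983 of 19775 human genes were called lower. The lower counts of the list did not exceed these shares. CDH5, the cadherin of endothelial junctions, read 5.70 and 6.36 in pancreas, 4.92 and 5.09 in testis and 3.40 and 3.62 in thymus on the rhesus arrays, against 2.45 and 2.47 in fibroblasts. It was called higher in these 3 tissues on both types, by 3.57 (rhesus) and 2.97 (human) in pancreas, 2.54 and 2.65 in testis and 1.05 and 1.70 in thymus. SOX17, a transcription factor of arterial endothelium that other cells also use, was higher in testis by 1.68 and 1.40.

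PROCR and THBD, receptors of the protein C pathway on endothelium, were high in fibroblasts, as ENG was. PROCR read 2.80 and 2.91 in cortex, 3.63 and 3.98 in pancreas, 3.07 and 3.41 in testis and 3.08 and 3.09 in thymus on the rhesus arrays, against 10.40 and 10.49 in fibroblasts. It was called lower in all 4 tissues on both types, with differences of -7.58 (rhesus) and -2.95 (human) in cortex, -6.64 and -2.75 in pancreas, -7.20 and -3.06 in testis and -7.36 and -3.01 in thymus. The THBD differences were -2.51 and -1.61 in cortex and -1.97 and -1.01 in pancreas, all called. Genes of the mural cells that surround vessels also differed by tissue: MYH11, a smooth muscle myosin, was 7.84 and 5.93 higher in testis, and NOTCH3, a receptor of mural cells, was 5.69 and 3.39 higher in thymus and 3.80 and 1.58 in testis. CNN1, a smooth muscle calponin, was called lower in cortex, pancreas and thymus on both types, with differences of -2.82 and -1.83 in cortex.

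**Figure D5:**
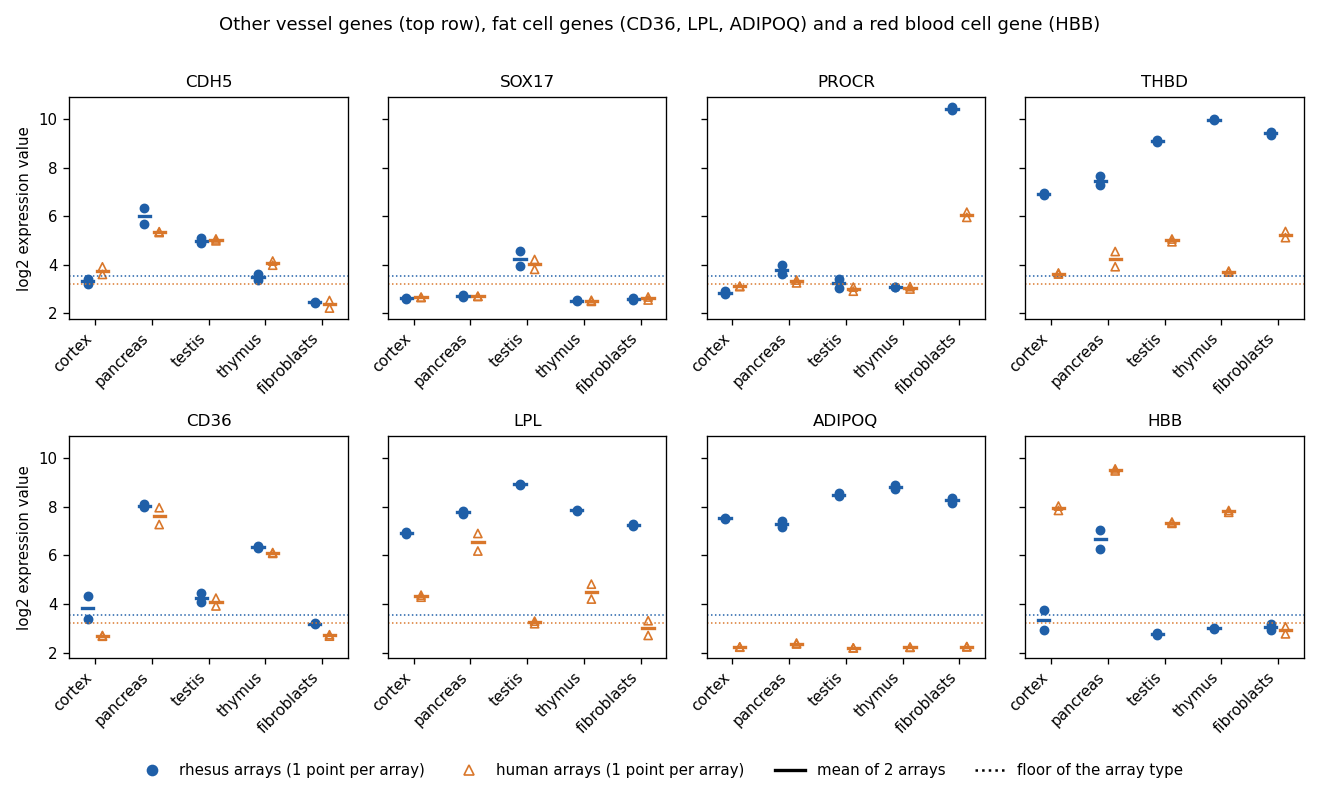
Log2 expression value (vertical axis) of 4 other vessel genes, 3 fat cell genes and a red blood cell gene in 5 sources, with 1 point per array, short bars for the mean of 2 arrays and dotted lines for the floors. CDH5 and CD36 were highest in pancreas on both array types, and PROCR in fibroblasts, at 10.40 and 10.49 on the rhesus arrays.

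The mean of the members, each centred on its own mean over the 5 sources, was 1.62 in pancreas, 0.44 in thymus, 0.22 in testis and -1.01 in cortex, against -1.28 in fibroblasts, on the rhesus arrays. The human profile was 0.92, 0.58, -0.13 and -0.64, against -0.73. Profiles were compared for 6189 genes, members among them, whose source means spanned at least 1 on both array types. Apart from members, those most like this profile were MOCOS (Pearson's r of 0.98 rhesus and 0.97 human over 5 source means), RIPK4 (0.98 and 0.97), GSTT1 (0.95 and 0.95), PEX11A (0.96 and 0.94) and CD36 (0.94 and 0.99). With 5 points, such values are a description of the ranking only.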

How the data were processed

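Values are log2 expression levels as the authors deposited them, in a separate table for each array type. RMA is named for them in the submitters' processing notes. Neither its version nor the arrays that were run through it as a group is stated in the sources used here. Of the probe sets that are not controls, 24956 of 52766 on the rhesus and 41091 of 54613 on the human arrays had 1 gene symbol in the annotation of the arrays. Gene numbers of all 9 rhesus members were looked up in a current gene table of the species, and 0 symbols changed. limma 3.58.1 (lmFit and eBayes, R 4.3.3) was fitted to all 10 arrays of a table, with the source as a factor and Benjamini-Hochberg adjustment over all probe sets that are not controls. With 2 arrays per source the spread was pooled over sources, and the number of arrays limits the precision. Members and gene lists were chosen with earlier results of these data known. Genes named beside the members came, per list and tissue, from up to 4 genes with the largest difference called the same way on both array types. Not all of these are named. The 5 genes with the most similar profile are named too. Marker genes such as ADIPOQ, PLIN1, LPL, PF4, ITGA2B, GP9 and PPBP, and the genes drawn in the plot of other genes, were chosen after their values were seen. Promoter motifs and sequences were not used here. Simulated arrays took each probe set's mean over all 10 arrays and its spread within sources, with changes added to testis alone. For testis against fibroblasts, a log2 change of 1.5 was recovered for 72 of 100 probe sets among 52766 on the rhesus and 82 of 100 among 54613 on the human arrays. Of 100 changed by 3, 98 and 93 were recovered, with 0 wrong signs. Replicate numbers did not pair the arrays: same-numbered arrays deviated together with r between -0.03 and 0.02. Alternatives were quantile normalization, array medians or spiked controls subtracted, leaving out dim probe sets, calling without a minimum size, an ordinary contrast, a replicate block, averaging a gene's probe sets, and leaving out each array in turn.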

Additional observations from a re-analysis of the deposited data

How the results depend on the processing

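The counts of members called stayed within 1.5 times their value when array medians were subtracted, when dim probe sets were left out, with an ordinary analysis of variance contrast and with the replicate number as a block, where 2 in cortex, 6 in pancreas, 5 in testis and 5 in thymus were again called higher on the rhesus arrays. Replicate numbers did not pair the arrays, and the block changed no call. Reading a gene as the mean of all its probe sets gave 0 members higher and 0 lower in cortex, 0 lower in pancreas and 0 higher in testis on the human arrays, and 0 lower in pancreas on the rhesus arrays. With no minimum difference 2 were higher in testis on the human arrays and 1 lower in testis on the rhesus arrays. Quantile normalization left 0 lower in pancreas on the human arrays. Subtracting the spiked controls gave 2 higher and 3 lower in pancreas on the human arrays, and 3 lower in pancreas and 1 lower in testis on the rhesus arrays. With each array left out in turn, members called higher on the human arrays ranged from 0 to 1 in cortex, 3 to 6 in pancreas, 0 to 1 in testis and 3 to 4 in thymus, and those on the rhesus arrays from 6 to 7 in pancreas, with the other counts unchanged. Subtracting the spiked controls shifted the median of all probe sets by -1.55 (rhesus) and -1.45 (human) for pancreas against fibroblasts. The following differences turned sign under it and were called with one scaling or the other. For pancreas against fibroblasts they were -1.47 for KDR and -1.01 for CLDN5, and -1.50, -1.09 and -1.37 for the dimmer probe sets of ENG, TEK and VWF on the rhesus arrays, while the brightest of TEK and VWF stayed at 2.25 and 2.83. The human values were -0.10 for KDR, -1.39 for PLVAP and -1.19 for the brighter TEK probe set, and for dimmer probe sets -1.21, -1.43, -1.36 and -1.21 (PECAM1), -1.04 (ENG), -1.31 (TEK), -1.04 (EMCN) and -1.41 (VWF). Differences called with neither scaling also turned, among them human TIE1 (-0.68) and CLDN5 (-0.52) in pancreas. For cortex against pancreas they were 1.06 and 1.00 for dimmer PECAM1 probe sets, 1.03 for PLVAP and 1.04 for the dimmer VWF probe set, and for pancreas against thymus -1.01 for a dimmer PECAM1 probe set, all human. The same setting ended the pancreas calls of TIE1 on the rhesus arrays (0.34) and PECAM1 on the human arrays (0.19), and the thymus call of EMCN on the rhesus arrays (0.64). The cause of these changes was not tested.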
